A study of Mus musculus with 6 samples.

Results

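The E2F and Rb family was examined in H3K27ac ChIP-seq of B16 melanoma cells that differ in pigment. The 10 genes were taken by name from the mm10 annotation and comprise 7 E2F genes (E2f1, E2f2, E2f3, E2f4, E2f5, E2f6 and E2f8) and 3 Rb genes (Rb1, Rbl1 and Rbl2), of 21951 protein-coding genes. Peaks of the 4 libraries that overlapped were merged, and 67 of the 182956 merged regions lay over these genes or within 3 kb of them. B16 F10, a mouse melanoma line, had been seeded at 100 cells per cm2 and was harvested on day 5 of a model in which the cells darken as they grow. The cells were sorted by side scatter into a low-pigment (LP) and a high-pigment (HP) population, with 2 H3K27ac libraries of each and 2 IgG libraries of unsorted cells that served only as controls for peak calling. The labels name no treatment or genetic change for either population, both are fractions of 1 melanoma line, and side scatter stands in for pigment. The labels do not say whether replicates came from separate cultures, so p-values measure the spread between these libraries, which may be technical. That spread was pooled over all regions called in every library, so it is not that of a single gene.

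H3K27ac is an acetyl mark on histone H3 that sits at active promoters and enhancers. E2F proteins bind DNA at genes for DNA replication and cell division, mostly as dimers with a DP protein. The proteins of Rb1, Rbl1 and Rbl2 (the pocket proteins Rb, p107 and p130) bind E2Fs and keep target genes silent until cyclin-dependent kinases phosphorylate them. Some E2F genes are E2F targets themselves. The question here was whether the promoters and other acetylated elements of these genes differed between the more proliferative LP and the more pigmented HP cells.

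All 10 genes carried a promoter region in all 4 libraries (45% of protein-coding genes did). None of the 10 differed between HP and LP after adjustment, and all 10 had a ratio above 0, as most regions of these libraries did. Of 12084 regions called in all 4 libraries, 99% had a higher pileup in HP, with a median log2 ratio of 0.92, so that a ratio below 0.92 is a smaller difference than most regions show. E2f3 had the highest promoter ratio in the family (log2 ratio 1.03 ± 0.54, SE, n = 2 against 2) and Rb1 the lowest (0.07 ± 0.54). Both ranks changed in some fits that left a library out. The SE comes from 1 spread pooled over the 12084 regions, so it is the same at every region. The largest difference in the family was at an element in the first intron of Rbl2, with a log2 ratio of 1.47 ± 0.54 and an adjusted p of 0.0714.

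Promoter sequences were taken from RefSeq, which held 9 windows for 7 of the 10 genes, each with 250 bases before the start site and 50 from it on (GRCm38.p6, the assembly of mm10). E2f4, E2f5 and Rb1 had no entry. The 4 sequences below are shown for both start sites of E2f3, the gene with the highest promoter ratio, for E2f1, and for Rbl1, the gene with the highest promoter pileup, which was added after its values were seen. Capitals mark matches on either strand to 4 forms of the E2F site (TTTCCCGC, TTTGGCGC, TTTGCCGC or TTTCGCGC), to the cell cycle homology region or CHR (TTTGAA or TTCGAA), to the CCAAT box (CCAAT) and to the Sp1 box (GGGCGG). The windows lie at chr13:29986014-29986313, chr13:29984342-29984641, chr2:154569377-154569676 and chr2:157204485-157204784, in this order, all on the minus strand, and are written 5′ to 3′ along the gene.
E2f3, upstream start site: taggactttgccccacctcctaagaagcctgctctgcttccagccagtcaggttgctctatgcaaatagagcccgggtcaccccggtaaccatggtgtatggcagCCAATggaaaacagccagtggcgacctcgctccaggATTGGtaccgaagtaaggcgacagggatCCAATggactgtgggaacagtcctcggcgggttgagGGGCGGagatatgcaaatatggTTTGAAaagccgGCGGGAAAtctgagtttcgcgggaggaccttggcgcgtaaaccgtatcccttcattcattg
E2f3, downstream start site: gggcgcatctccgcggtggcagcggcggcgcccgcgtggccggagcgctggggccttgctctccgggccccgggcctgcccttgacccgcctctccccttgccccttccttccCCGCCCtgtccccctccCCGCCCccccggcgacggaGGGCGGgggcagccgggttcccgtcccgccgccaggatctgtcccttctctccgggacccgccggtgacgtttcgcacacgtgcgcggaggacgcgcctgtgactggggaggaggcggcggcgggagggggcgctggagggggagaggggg
E2f1: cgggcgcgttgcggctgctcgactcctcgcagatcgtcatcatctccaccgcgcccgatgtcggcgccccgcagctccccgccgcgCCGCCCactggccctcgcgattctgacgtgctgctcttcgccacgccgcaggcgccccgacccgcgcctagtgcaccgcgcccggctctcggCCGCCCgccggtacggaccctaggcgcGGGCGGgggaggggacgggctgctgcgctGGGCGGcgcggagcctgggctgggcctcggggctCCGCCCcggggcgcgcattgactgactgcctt
Rbl1: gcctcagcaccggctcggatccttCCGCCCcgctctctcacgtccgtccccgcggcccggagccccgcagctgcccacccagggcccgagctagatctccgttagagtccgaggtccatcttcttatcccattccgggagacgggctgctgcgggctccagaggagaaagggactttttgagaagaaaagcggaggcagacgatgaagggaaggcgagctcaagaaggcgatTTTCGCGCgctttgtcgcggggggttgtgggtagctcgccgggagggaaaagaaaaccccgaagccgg

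A match to the E2F site stood in 3 of the 9 windows, against 2.26% of 32851 promoter windows in RefSeq. They were the upstream window of E2f3, at positions −11 to −4 with the start site as 0, that of Rbl1 at −18 to −11, and the first window of E2f2, past its start at 39 to 46. The upstream E2f3 window also held a CHR at −23 to −18, next to the E2F match, and 3 CCAAT boxes. Its downstream window, 1672 bp further along the gene, held 3 Sp1 boxes, none of the other motifs and 78.7% G and C, against 55.3% upstream. The E2f1 window held 5 Sp1 boxes and no match to the 4 E2F forms searched. RefSeq places the E2f1 start 466 bp past the 5′ end of the gene in GENCODE, so this window begins 216 bp inside the GENCODE gene and says nothing of the bases before that 5′ end. In GENCODE the downstream E2f3 window and the other E2f2 window lie inside their genes as well. Over the family, a CHR stood in 4 of 9 windows (19.2% of all windows), a CCAAT box in 4 of 9 (37.4%) and an Sp1 box in 7 of 9 (35.7%). The matches in these windows did not overlap one another. These counts describe letters and not bound sites.

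The pileup, the number of fragments over the highest summit of a region, was divided by the total fragments of its library and given per 1000000 fragments (scaled pileup). The libraries held 11467942 to 15353176 fragments, so 1 fragment was worth 0.0651 to 0.0872. HP replicate 2 stood apart. The median scaled pileup of the 12084 shared regions was 2.44 and 2.61 in the LP replicates, 3.92 in HP replicate 1 and 6.59 in HP replicate 2, and HP exceeded LP by a median log2 ratio of 0.57 in replicate 1 and 1.30 in replicate 2. Centring each library on its own median lowered the family's median ratio from 0.67 to −0.34, so directions are read here against all regions. The promoters of 8 of 9 melanocyte markers were called in all 4 libraries, with scaled pileups that summed to 14.4 and 15.96 for LP and to 26.99 and 41.2 for HP, and Kit was the exception. No promoter of 5 fibroblast, 4 keratinocyte, 5 haematopoietic or 3 endothelial markers was called in all 4 libraries, and the summed levels of these lists ranged from 0 to 2.09. A change in level per cell and a change in the share of acetylated cells cannot be told apart in these bulk libraries.

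**Figure D1:**
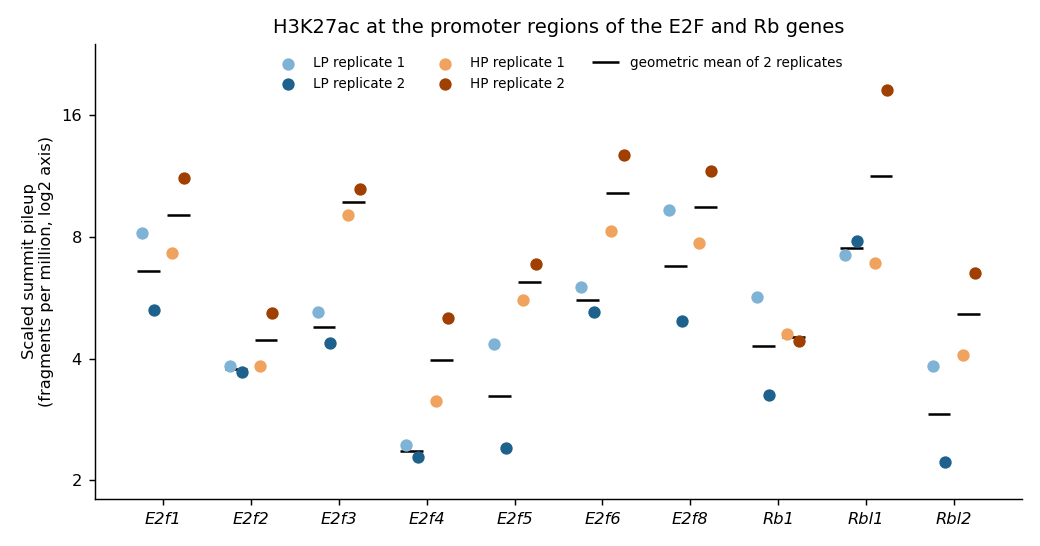
Scaled summit pileup (per 1000000 fragments, log2 axis) at the promoter region of each E2F and Rb gene, 1 point per library, with the geometric mean of the 2 replicates as a bar. HP lies above LP without overlap at E2f3, E2f4, E2f5, E2f6 and Rbl2, and the groups overlap at the other 5 genes.

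E2f1, E2f2 and E2f3 encode the activator E2Fs, which drive target genes as cells enter S phase. At the E2f1 promoter (mm10 chr2:154568427-154571457, over exon 1) LP replicates 1 and 2 had a scaled pileup of 8.20 and 5.28, and HP replicates 1 and 2 had 7.31 and 11.2. HP replicate 1 lay between both LP values, so the groups overlapped. The log2 ratio was 0.46 ± 0.54 (SE; 95% interval −0.60 to 1.53; adjusted p = 0.442, limma with Benjamini-Hochberg adjustment over the 12084 regions). By replicate number it was −0.16 in replicate 1 and 1.09 in replicate 2, opposite in sign.

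E2f2 was flatter still. Its promoter region (chr4:136171343-136173776, exon 1) had 3.84 and 3.71 in LP and 3.83 and 5.19 in HP, so that only HP replicate 2 stood apart from the other 3 libraries. The log2 ratio was 0.24 (95% interval −0.82 to 1.31; adjusted p = 0.678). RefSeq holds another start site of E2f2, inside the gene, and no library had a peak within 1 kb of it.

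E2f3, which makes a longer protein from its upstream start site and a shorter one from a start site inside the first intron, was the activator with the clearest separation. Its merged promoter region spans both starts (chr13:29983344-29986071) and had 5.23 and 4.36 in LP against 9.06 and 10.5 in HP. Only the peak of HP replicate 2 covered the upstream start, beginning at −8 bp from it. The peaks of LP replicates 1 and 2 and HP replicate 1 began past it, at 397, 17 and 72 bp. Both HP libraries exceeded both LP libraries, and the 2 libraries of each population were close. The log2 ratio of 1.03 had an interval of −0.03 to 2.10 and did not pass (adjusted p = 0.146), and it was 0.79 in replicate 1 and 1.27 in replicate 2. The highest point of the region lay past the downstream start site in every library, by 239 and 286 bp for LP and by 292 and 244 bp for HP, and thus over 1900 bp from the upstream start, whose window carries the E2F match. A separate small region (chr13:29986310-29986943) upstream of the first start was called in LP replicate 1 (0.872), HP replicate 1 (0.958) and HP replicate 2 (0.702), at 10 or 11 fragments each, and showed no such separation.

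E2f4 and E2f5 encode repressor E2Fs, which bind the pocket proteins in resting cells. The E2f4 promoter (chr8:105297250-105299149, exons 1 to 4) had the lowest mean pileup over the 4 libraries, with 2.44 and 2.28 in LP and 3.13 and 5.05 in HP, on 28 to 72 fragments. Rbl2 was lower in LP replicate 2 and Rb1 in HP replicate 2. HP lay above LP, with a log2 ratio of 0.75 (95% interval −0.31 to 1.82; adjusted p = 0.246). E2f5 (chr3:14578404-14579438, exon 1) had values of 4.36 and 2.41 in LP, against 5.57 and 6.87 in HP. The groups again did not overlap, and the log2 ratio was 0.93 (−0.13 to 2.00; adjusted p = 0.175).

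E2f6 and E2f8 act without pocket proteins. E2F6 works with a Polycomb complex, PRC1.6, and E2F8 is an atypical E2F that binds DNA without a DP partner and represses E2F targets late in the cell cycle. The E2f6 promoter (chr12:16810669-16811949, exon 1) had 6.02 and 5.21 in LP and 8.27 and 12.8 in HP. HP lay above LP, with a log2 ratio of 0.88 (−0.19 to 1.94; adjusted p = 0.196). The E2f8 promoter (chr7:48880428-48882422, exon 1, shared with a start site of the long noncoding RNA Gm2788) had 9.33 and 4.95 in LP and 7.75 and 11.6 in HP. LP replicate 1 exceeded HP replicate 1, the groups overlapped, and the log2 ratio was 0.48 (−0.58 to 1.55; adjusted p = 0.424).

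Among the pocket protein genes the log2 ratio was 0.83 at Rbl2, 0.59 at Rbl1 and 0.07 at Rb1, in steps smaller than the SE of 0.54. Rbl2, whose product p130 accumulates in resting cells, had a promoter pileup (chr8:91069080-91072059, exon 1) of 3.84 and 2.21 in LP and 4.09 and 6.52 in HP. HP lay above LP, narrowly in replicate 1, and the ratio did not pass (95% interval −0.24 to 1.89; adjusted p = 0.214).

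The Rbl1 promoter (chr2:157203625-157205322, exon 1; product p107) had 7.24 and 7.82 in LP, 6.88 in HP replicate 1 and 18.5 in HP replicate 2. HP replicate 1 was the lowest of the 4 libraries and HP replicate 2 the highest value of the family, from 264 fragments. The log2 ratio of 0.59 (−0.48 to 1.65; adjusted p = 0.344) rested on HP replicate 2, and it was −0.13 without that library.

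At the Rb1 promoter (chr14:73324871-73326873, exon 1) LP had 5.67 and 3.26, and HP had 4.62 and 4.42. Both HP libraries lay between the LP libraries. The log2 ratio was 0.07 with an interval of −0.99 to 1.14 (adjusted p = 0.901), and 1.45% of all regions had a lower ratio. Rb1 was the only gene of the family whose promoter was not higher in HP replicate 2 than in HP replicate 1. Its height stood at percentiles 79.2 and 60.7 of the shared regions in the LP replicates, and at 57.6 and 31.1 in the HP replicates. This was not particular to Rb1. E2f1, E2f2, E2f4 and E2f8 also ranked lower in both HP replicates than in both LP replicates, E2f2 at 66.6 and 67.5 against 48.8 and 37.9. The percentiles of the remaining genes overlapped. With each library centred on its median the log2 ratio at Rb1 was −0.94, with an unadjusted p of 0.0291 and an adjusted p of 1.000 in limma (on this scale 2.28% of all regions were lower and 1.46% higher at an unadjusted p under 0.05).

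**Figure D2:**
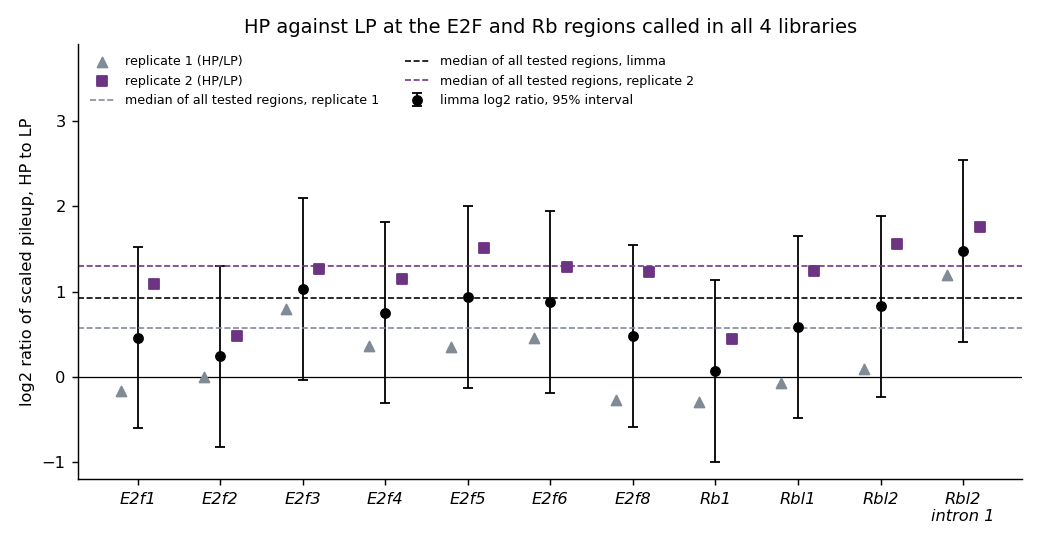
Log2 ratio of scaled pileup, HP to LP, at the 10 promoter regions and the Rbl2 intron 1 element, as the limma estimate with its 95% interval (circles, n = 2 against 2) and as the ratio within each replicate number (triangles and squares). Dashed lines give the median of all 12084 tested regions, 0.57 in replicate 1, 0.92 in the fit and 1.30 in replicate 2, and most promoters of the family lie at or below their line.

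Over the 10 promoters, 0 passed the adjusted threshold of 0.05 in limma, against 4.01% of all tested regions higher in HP and 0% lower. At an unadjusted p under 0.05 the count was also 0 (36.2% of all regions), and with the replicate number as a block it was 0 by the adjusted p (0.728% of all regions) and by the unadjusted p (34% of all regions). Without HP replicate 1, 3 of the 10 passed (E2f6, Rbl1 and Rbl2), against 57.3% of all regions. HP exceeded LP without overlap at 5 of 10 promoters, against 74.8% of all regions and 74.1% of the promoter regions of protein-coding genes, and lay below LP without overlap at 0 (0.141% of all regions). The exact permutation test of 2 against 2 libraries cannot give a two-sided p below 0.33. The median log2 ratio of the 10 was 0.67, against 0.92 over all regions, and 2 of the 10 (E2f3 and E2f5) lay above 0.92. Over the promoter regions of protein-coding genes the median was 0.89. In replicate 1 the family's median was 0.05 and 5 of 10 ratios were above 0, against a median of 0.57 over all regions. In replicate 2 it was 1.24 with 10 of 10 above 0, against 1.30. LP replicate 2 was lower than LP replicate 1 at 9 of 10 promoters (median log2 difference −0.45, against −0.06 over all regions). After centring, E2f3 alone stayed above 0, at 0.02, and the median over all regions was itself below 0, at −0.087.

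The promoter regions were ordered by their mean scaled pileup over the 4 libraries, which ran from 9.21 at Rbl1 through 8.04 at E2f8, 7.72 at E2f1, 7.59 at E2f6, 6.83 at E2f3, 4.48 at E2f5, 4.41 at Rb1, 4.10 at E2f2 and 3.88 at Rbl2 to 3.06 at E2f4. The ranges over libraries overlapped between all neighbours in this order. The summits had a fold enrichment over background of 8.85 to 93.3 as MACS gave it, and 28 to 264 fragments, so the promoters were far from the calling limit. The peaks were wider in HP than in LP at 10 of 10 promoters in replicate 1 and at 7 of 10 in replicate 2, with both HP widths above both LP widths at 3 of 10, against 61.3% of all tested regions. All tested regions were also wider in HP, with a median covered length of 634 and 943 bp in LP against 1135 and 1458 bp in HP (replicates 1 and 2).

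The Rbl2 element (chr8:91072293-91074277) was the only one of 48 elements away from a promoter that all 4 libraries called. The merged element begins past the promoter region, and only its HP replicate 2 peak reached exon 2. The summits of the element lay in intron 1, between 2967 and 3595 bp from the gene's 5′ end. Its LP values were 0.610 and 0.977 and its HP values 1.39 and 3.30, from 7, 15, 16 and 47 fragments. Both HP libraries exceeded both LP libraries, in replicate 1 by a log2 ratio of 1.19 and in replicate 2 by 1.76. The log2 ratio of 1.47 (95% interval 0.41 to 2.54) had an unadjusted p of 0.00670 and did not pass the adjusted threshold (adjusted p = 0.0714, limma). It stood at the percentile of 90.6 among all regions, and its height at 1.86 to 20.8, so it was a low element with a large ratio, beside a promoter of the same gene at 0.83. Tested regions away from the start sites of protein-coding genes had a median log2 ratio of 1.05, against 0.89 at promoter regions of such genes. The difference between the element and the promoter was not tested.

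The 300 bases around its highest summit, in HP replicate 2, are shown because the element had the largest ratio in the family (mm10 chr8:91073503-91073802, plus strand). Only the summit of HP replicate 2 lay in them, at 3595 bp from the gene's 5′ end. The summits of LP replicates 1 and 2 and HP replicate 1 lay outside, at 2981, 2967 and 3345 bp. The ratio therefore does not compare these bases between libraries. The 300 bases were chosen after the values were seen, hold 52.7% G and C, and carry none of the motifs named above.
Rbl2, intron 1: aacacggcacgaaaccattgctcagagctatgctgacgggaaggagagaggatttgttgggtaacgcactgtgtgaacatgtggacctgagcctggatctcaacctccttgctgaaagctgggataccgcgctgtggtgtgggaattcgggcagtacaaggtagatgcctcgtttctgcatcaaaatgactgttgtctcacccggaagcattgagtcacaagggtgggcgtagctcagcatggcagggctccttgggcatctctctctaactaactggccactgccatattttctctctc

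**Figure D3:**
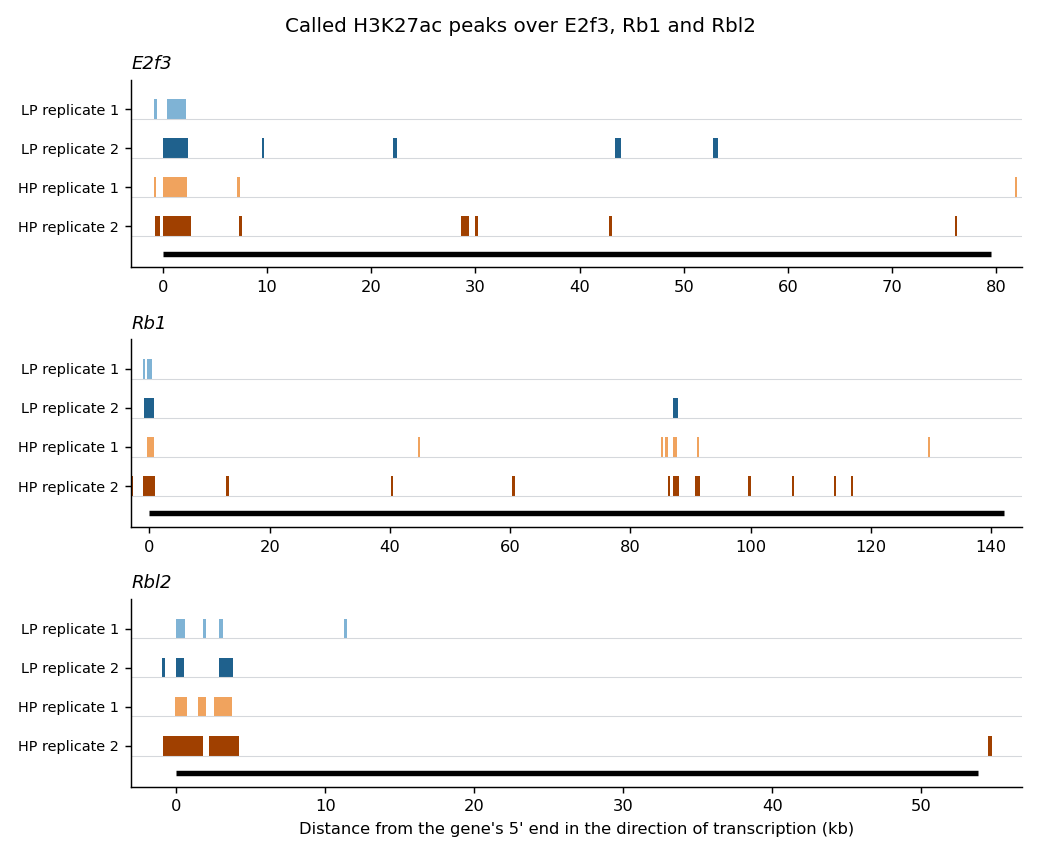
Called peaks over E2f3, Rb1 and Rbl2 in each of the 4 libraries, by distance from the gene's 5′ end (kb), with the gene body as a black bar. All bars have the same height, and narrow peaks are drawn at a minimum width so that they stay visible. Each gene has its promoter peak in all 4 libraries, Rbl2 has the intron 1 element beside it, and Rb1 has peaks along its body mainly in HP.

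Peaks away from the promoters were few and low. Of the 67 regions, 11 were called in all 4 libraries (6.6% of all regions were), 2 in 3, 5 in 2 and 49 in 1 (73.1%, against 81.7% of all regions). The 49 had 5 to 20 fragments with a median of 9, close to the lowest pileup called, 5 or 6, and were split into 5 from LP replicate 1, 10 from LP replicate 2, 11 from HP replicate 1 and 23 from HP replicate 2. Of the 67 regions, 19 lay at an annotated start site of their gene. Of the 48 other elements, 32 lay in introns, 6 touched exons, 5 lay upstream and 5 downstream.

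Both HP replicates and neither LP replicate called 2 regions, against 3.94% of all regions. One lay in intron 1 of E2f3 (chr13:29978432-29978911), with 0.435 and 0.772 from 5 and 11 fragments. Its 2 peaks met only at their edges, at 7152 to 7363 bp from the 5′ end in HP replicate 1 and 7357 to 7631 bp in HP replicate 2. The other region lay in intron 17 of Rb1 (chr14:73234211-73235036), with 1.05 and 1.12 from 12 and 16 fragments. Both LP replicates and neither HP replicate called 1 region, against 0.249% of all regions, in intron 7 of E2f4 (chr8:105303229-105303698), within 1 kb of the start of another annotated transcript of the gene. It had 0.698 and 0.521, from 8 fragments in either LP library. The Rb1 region had −log10 q-values of 4.41 and 9.99 and was the only one of the HP regions kept at a q-value of at most 0.001, while those of E2f3 were 1.75 and 4.15. In the libraries without a peak, its absence says only that the threshold was not reached.

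Rb1, a tumour suppressor gene and the longest of the family at 142 kb, had the widest range in the number of peaks. It had 2 peaks in either LP library, 7 in HP replicate 1 and 12 in HP replicate 2, covering 993, 2634, 3214 and 6277 bp. The whole libraries held 57942 and 66580 peaks in LP, and 64759 and 71529 in HP, and genes of like length were not compared. Both HP counts exceeded both LP counts while the promoter values overlapped. Of its 16 regions 13 were called in 1 library, and the HP peaks were spread from the upstream flank to exon 27. Several clustered in intron 17, where Lpar6, the gene of a lysophosphatidic acid receptor, lies inside Rb1. The region at the Lpar6 start site (chr14:73237754-73238789) had 0.847 in LP replicate 2, 1.05 in HP replicate 1 and 1.96 in HP replicate 2 and was not called in LP replicate 1. Its log2 ratio was 0.76 (adjusted p = 0.375, limma over regions called in at least 3 libraries). Peaks in this intron cannot be assigned to Rb1 or to Lpar6.

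No other gene of the family had both HP counts more than 1 above both LP counts. E2f3 had 2 and 5 peaks in LP, against 4 and 7 in HP, and E2f8 had 1 and 2 against 2 and 5, so their groups met or overlapped. E2f1 and E2f5 had 1 more peak in either HP library than in LP, with 2 against 3 and 1 against 2. E2f4, with 2 and 5 in LP and 4 and 2 in HP, E2f2, E2f6, Rbl1 and Rbl2 overlapped. Over the 10 genes the peaks numbered 21 and 27 for LP, against 32 and 40 for HP, and covered 11572 and 20555 bp for LP, against 19780 and 30517 bp for HP. The covered lengths overlapped between the populations, with LP replicate 2 above HP replicate 1. The whole libraries also held more peaks in HP replicate 2 than in the other 3, while HP replicate 1 had fewer than LP replicate 2.

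**Figure D4:**
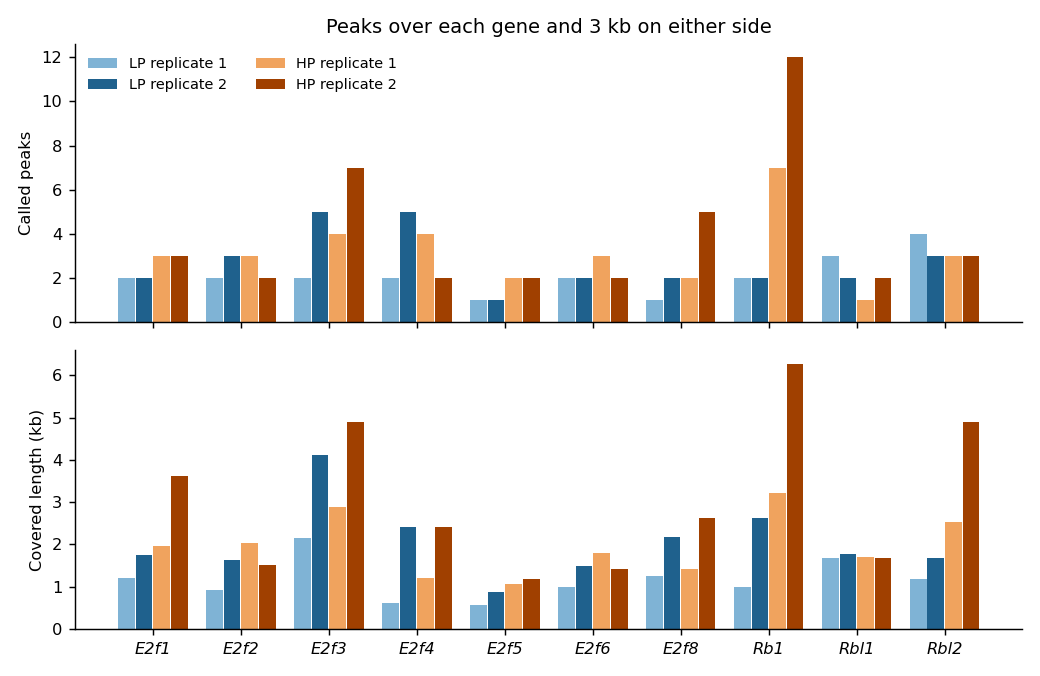
Number of called peaks (top) and covered length in kb (bottom) over each gene and 3 kb on either side, 1 bar per library. Rb1 has 2 and 2 peaks in LP and 7 and 12 in HP, and the other genes differ by fewer peaks.

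The remaining genes of the pathway were taken as 4 lists with 40 genes, of which 39 had a promoter region in all 4 libraries (Lin37, a subunit of the DREAM complex, did not). Higher in HP were 2 of 39 (4.01% of all regions), none were lower, and 9 of 39 had an unadjusted p under 0.05 (36.2% of all regions). The median log2 ratio was 0.83, between the 0.67 of the E2F and Rb genes and the 0.92 of all regions.

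Partners of the E2Fs and subunits of DREAM, the complex through which pocket proteins repress cell cycle genes, had a median of 0.69 over 8 genes and 0 passed. They ran from 0.36 at Tfdp2, which encodes a DP partner, to 1.48 at Lin52 (adjusted p = 0.0706), whose region also holds a start site of Aldh6a1. The cyclins and kinases that phosphorylate pocket proteins had a median of 0.82 over 8 genes and 0 passed, from 0.52 at Ccne2, a cyclin E gene, to 1.51 at Cdk4 (adjusted p = 0.0661), the kinase partner of D-type cyclins. The Cdk2 region of this list (log2 ratio 1.48) also holds a start site of Pmel, 1 of the melanocyte markers above. It has the same values for both genes and cannot be assigned to Cdk2 alone.

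Among 17 E2F target genes, with a median of 0.84, 1 passed. Tk1, which encodes thymidine kinase, had 1.05 and 1.56 in LP and 3.57 and 5.47 in HP. Both HP values lay above both LP values, and the log2 ratio was 1.79 ± 0.54 (SE; adjusted p = 0.0457, limma; 0.0592 with the replicate number as a block), with 1.77 in replicate 1 and 1.81 in replicate 2. The region also holds a start site of Afmid, so it cannot be assigned to Tk1 alone. Mcm3, a subunit of the replicative helicase, had the lowest ratio of the targets, 0.30.

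Of 6 partners of E2F6 in PRC1.6, with a median of 0.90, 1 passed. L3mbtl2, which encodes a chromatin reader of that complex, had 2.09 and 1.04 in LP and 3.57 and 10.3 in HP. HP lay above LP, and the log2 ratio was 2.04 ± 0.54 (SE; adjusted p = 0.0351, limma; 0.0491 with the block), but it was 0.77 in replicate 1 and 3.31 in replicate 2. The pooled SE does not reflect the distance between these 2 values. Mga, the DNA-binding partner of MAX in that complex, had the lowest ratio of the list, 0.63. With each library centred on its median 0 of the 39 passed. With HP replicate 2 left out, neither Tk1 nor L3mbtl2 passed (0% of all regions did), and with HP replicate 1 left out 22 of the 39 did (57.3% of all regions).

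**Figure D5:**
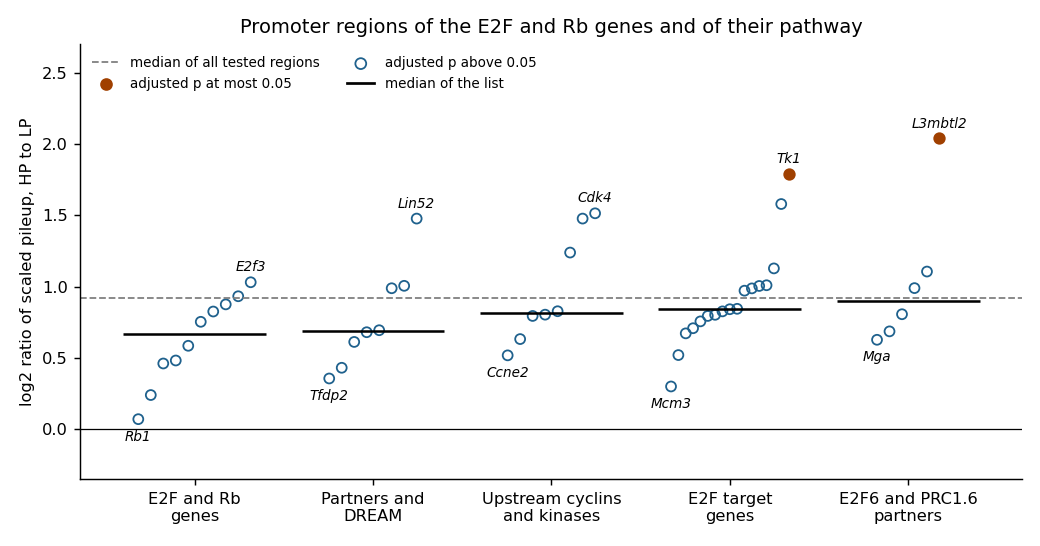
Log2 ratio of scaled pileup, HP to LP, at the promoter regions of the E2F and Rb genes and of 4 lists of pathway genes, 1 point per gene, with the median of each list as a bar and the median of all tested regions (0.92) as a dashed line. Tk1 and L3mbtl2 are the filled points that passed the adjusted threshold, and all list medians lie below the dashed line.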

How the data were processed

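H3K27ac ChIP-seq libraries of LP and HP cells (2 replicates each) were grouped by their labels. Cells were fixed for 10 minutes, with 1% formaldehyde per the labels. Per the labels and the methods of the study, the authors trimmed reads with Trimmomatic 0.33, aligned them to mm10 with Bowtie2 2.5.1 and called peaks in each library with MACS 3.0.0b1, as paired fragments with all duplicates kept, at a q-value of 0.05, with the equally numbered IgG library as control (8701778 and 19358733 fragments). The deposited pileup is an unscaled coverage signal, the number of fragments over the summit. The deposited fold enrichment is a ratio to the local background, and the deposited −log10 p-values and −log10 q-values come from MACS. Fold enrichment was used as a description and the q-value only as a filter.

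Peaks of the 4 lists that shared at least 1 bp were merged, and a library's highest summit pileup in a region was divided by its total fragments and multiplied by 1000000. A promoter region lay within 1 kb of a GENCODE M21 start site. For the 12084 regions that every library called, limma 3.58.1 (R 4.3.3) compared the log2 scaled pileup, two-sided, with Benjamini-Hochberg adjustment and a threshold of 0.05. The fit had no block, and limma used 1 pooled variance for all regions. The merging and the fit were tested on simulated data. Replicate numbers pair the libraries, since the labels give equal DNA within a replicate set and each set has its own IgG library. Over regions, the LP and HP differences between replicates had a correlation of 0.0153. Only regions called in every library were tested, which favours strong regions, and counting error alone is large at 5 to 20 fragments. The control peak files were not used here.

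The text names the 10 genes, each with its promoter region and its elements called in all libraries or in 1 population, the pathway genes past the threshold and those with the highest and lowest ratio in each list, and it gives the other regions over the genes by count. Cdk2 is named as well, because its region holds the start site of a melanocyte marker. The genes, lists and tests were chosen with earlier results of these data known. Motifs were searched in RefSeq promoter windows. Alternatives covered the q-value, the scaling, the summary of a region, the windows, single libraries and the replicate block.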

Additional observations from a re-analysis of the deposited data

How the results depend on the processing

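The alternatives gave 456 further values for 34 results, of which 373 kept their direction and call, or their size. Some of these could not change. The replicate block and the use of regions called in at least 3 libraries leave the log2 ratio of a region called in every library as it was. The scale decided the direction. After centring on the library median, the log2 ratio was −0.55 at E2f1, −0.77 at E2f2, −0.26 at E2f4, −0.078 at E2f5, −0.14 at E2f6, −0.53 at E2f8, −0.94 at Rb1, −0.43 at Rbl1, −0.19 at Rbl2, −0.65 at Tfdp2, −0.49 at Ccne2, −0.71 at Mcm3 and −0.38 at Mga, and the medians were −0.34 for the family and −0.18 for the pathway genes. With quantile normalization it was −0.34 at E2f1, −0.75 at E2f2, −0.27 at E2f4, −0.29 at E2f8, −0.84 at Rb1, −0.23 at Rbl1, −0.12 at Rbl2, −0.63 at Tfdp2, −0.29 at Ccne2, −0.50 at Mcm3 and −0.37 at Mga, with medians of −0.25 and −0.059. E2f3 stayed above 0 under all 15 alternatives, from 0.02 to 1.16, though several of them only repeated the main value of 1.03. E2f3 as the highest promoter and Rb1 as the lowest held after centring and with quantile normalization, but not throughout. With the mean summit pileup Rbl2 was highest (1.20) and E2f8 lowest (0.16), with Rb1 at 0.50. Without LP replicate 1 E2f5 was highest (1.36) and E2f2 lowest (0.265). Rbl1 was highest without HP replicate 1 (1.30) and lowest without HP replicate 2 (−0.13). Leaving out each replicate in turn gave −0.33 (without LP replicate 2) to 0.47 at Rb1, and, lowest without HP replicate 2 and highest without HP replicate 1, −0.13 to 1.30 at Rbl1, −0.29 to 0.89 at Mcm3 and −0.060 to 1.32 at Mga.

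Single libraries set the calls. Leaving out each replicate in turn gave 0 to 3 family promoters past the threshold, 0 to 1 other elements (the Rbl2 element, adjusted p = 0.00127 in limma without HP replicate 1) and 0 to 22 pathway promoters, the highest of each without HP replicate 1. The arm left with 1 library was assumed to vary like the other. With the replicate number as a block 1 pathway promoter passed (L3mbtl2), and no call in the family changed. Pathway promoters past the threshold numbered 0 with a q-value of at most 0.001, after centring, with quantile normalization, with scaling by fragments times length and with the mean summit pileup, and 1 with regions called in at least 3 libraries. The cause of these differences was not tested.

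Regions called in both HP libraries alone numbered 1 with a q-value of at most 0.01 and 1 at 0.001, and regions called in both LP libraries alone 0 at 0.001 and 0 where peaks had to cover 50% of the region. Leaving out each replicate in turn gave 3 to 25 and 1 to 11. Taken within 1 replicate number (the block), HP alone called 14 and 26 regions in replicates 1 and 2 and LP alone 6 and 11. Shares of all regions are not given for these settings. The counts therefore cannot be read as a trait of the family, and HP replicate 2 held the most peaks of the 4 libraries. Pileups of 5 to 20 fragments limit all of these.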
